A study of Mus musculus with 7 samples.

Results

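Type I interferon response genes are the genes that cells switch on when interferon alpha or beta binds its receptor. The list examined here named 39 mouse genes of this response, and its members are the rows of the deposited gene tables that carry one of those symbols. 37 of the 39, out of 32285 genes in the tables, were analysed. Mx1 and Mx2 were not analysed here. The genes were followed across cell types and treatments in leukocytes from mouse brains carrying GL261 glioma, a syngeneic mouse glioma line.

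Every library came from wild-type female mice of 8 to 9 weeks with a GL261 tumour. Living CD45+ cells (CD45 marks leukocytes, and dead cells were excluded with the dye DRAQ7) were sorted at day 21 from the tumour-bearing left hemisphere, 5000 cells per mouse, and cells of 2 mice were pooled per library. Untreated mice gave 1 library. PT2385, an inhibitor of the hypoxia-inducible factor HIF-2α, was given at 10 mg/kg from day 7 and gave 2 libraries. Immune checkpoint blockade (ICB), antibodies against PD-1 and TIM-3, gave 2 libraries, and both treatments together gave the other two. The labels mention vehicle and isotype controls without saying which mice of the untreated group received them. Where a group has a pair of libraries they are numbered pool 1 and pool 2, following GEO's listing. A pool mixes its mice, so p-values measure the spread between pools, and the untreated group has no replicate.

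In type I interferon signalling, interferon alpha or beta binds the receptor chains IFNAR1 and IFNAR2, and the kinases JAK1 and TYK2 phosphorylate STAT2. This factor joins IRF9 in a complex that binds interferon-stimulated response elements in promoters. Myeloid cells are known for strong responses, and plasmacytoid dendritic cells for a high capacity to make the ligands. The members fall into IFIT proteins, which bind foreign RNA; OAS enzymes, which sense double-stranded RNA; other antiviral effectors; the ubiquitin-like modifier ISG15 with its enzymes; the RNA sensors Ddx58 (RIG-I), Ifih1 (MDA5) and Dhx58 (LGP2); the transcription factors Irf7, Irf9 and Stat2; Schlafen genes; and 6 others.

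The promoters of several members show the element directly. RefSeq promoter entries (GRCm38.p6, read by gene symbol, since the deposited counts use GRCm39) were found for 29 members. Within 250 bases upstream of the start site, 13 of them (44.8%) held 2 copies of GAAA spaced by NN, where N is any base, on either strand (overlapping matches allowed; the reverse complement reads TTTC, NN, TTTC). Of the 27025 genes in the table, 3.46% held it in the same window of at least 1 promoter. Counted by promoter, it was in 14 of the members' 35 entries and in 978 of all 32851 (2.98%). The 13 members were Bst2, Ifit1, Ifit3, Ifit3b, Isg15, Oas1a, Oas1g, Oas3, Rsad2, Slfn5, Slfn8, Stat2 and Trim30a. A match is only a description of these letters. Stretches are shown, 5′ to 3′ on the gene's strand with the matches in capitals, for members whose levels are described below. The windows shown for Ifit3 and Ifit3b are identical in 84 of 84 bases, which lie upstream and say nothing about reads. Ifit3 and Ifit3b, and likewise Oas1a and Oas1g, are close gene copies. Reads could be split within each pair, which was not tested, so each value of theirs is uncertain.
Isg15, chr4:156200855-156200938, minus strand: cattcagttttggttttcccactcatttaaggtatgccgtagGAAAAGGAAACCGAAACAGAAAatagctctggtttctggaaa
Ifit1, chr19:34640765-34640833, plus strand: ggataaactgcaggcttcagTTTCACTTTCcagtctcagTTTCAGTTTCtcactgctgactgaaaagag
Ifit3, chr19:34583353-34583436, plus strand: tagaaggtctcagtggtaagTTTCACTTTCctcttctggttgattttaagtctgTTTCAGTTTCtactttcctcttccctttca
Ifit3b, chr19:34607749-34607832, plus strand: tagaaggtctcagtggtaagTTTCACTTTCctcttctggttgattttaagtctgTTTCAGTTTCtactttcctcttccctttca
Rsad2, chr12:26456533-26456592, minus strand: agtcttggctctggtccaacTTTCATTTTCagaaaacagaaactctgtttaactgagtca
Bst2, chr8:71537563-71537622, minus strand: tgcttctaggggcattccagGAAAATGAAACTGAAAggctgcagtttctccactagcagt
Oas3, chr5:120777705-120777779, minus strand: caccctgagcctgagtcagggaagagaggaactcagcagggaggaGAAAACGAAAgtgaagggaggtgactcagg
Isg15 has 3 overlapping matches, the first 78 bases before its start site, and the IFIT windows have 2 separate ones each. Slfn4 has the largest PT2385 difference in monocyte/macrophage cells below, and Oasl1 is the 1 member that passed a treatment test. Both had no match in this window, which says only that these letters are not there.
Slfn4, chr11:83175066-83175185, plus strand: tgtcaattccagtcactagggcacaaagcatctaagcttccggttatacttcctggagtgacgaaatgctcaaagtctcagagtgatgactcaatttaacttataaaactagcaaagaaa
Oasl1, chr5:114923120-114923239, plus strand: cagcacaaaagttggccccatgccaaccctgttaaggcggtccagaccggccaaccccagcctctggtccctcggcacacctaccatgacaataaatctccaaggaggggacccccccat

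The 7 libraries held 59839154 to 81960504 UMIs (unique molecular identifiers, each marking 1 captured transcript) in 4653 to 7439 kept cells. Pairs of libraries shared 3 to 17 cell barcodes. Cells were assigned to a class where enough of its fixed markers had a UMI, and no member of the interferon list is a marker. 29696 of 38441 cells (77.3%) passed exactly 1 gate; the 6353 ungated cells were shallow (median 2245 UMIs), and 2392 cells that passed several gates were deep (median 22067 UMIs). The largest class, monocyte/macrophage cells, had 15775 cells (1096 to 3777 per library), followed by 4737 microglia (279 to 1618). The monocyte gene Ly6c2 had a UMI in 87.4% of monocyte/macrophage cells, in 7.16% of microglia and in 6.77% of choroid plexus cells, which should lack it (median depths 12299, 8037 and 7365 UMIs). The microglia gene Tmem119 had a UMI in 95.5% of microglia, in 26.1% of monocyte/macrophage cells and in 3.24% of choroid plexus cells. Among cells that passed several gates, 63.1% had a UMI of Tmem119 and 72.2% of Ly6c2. The choroid plexus gene Ttr had a UMI in 31.5% of monocyte/macrophage cells and 58.2% of microglia, and gated choroid plexus cells numbered 0 in the untreated pool to 710 in combination pool 2. ICB pool 1 stood apart in monocyte/macrophage cells, with the lowest summed level of that class's own 13 markers (12268 CPM, that is UMIs per 1000000 UMIs of the class in that library, against 15783 to 19189).

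Among the 8 classes large enough to test, monocyte/macrophage cells carried the highest level of most members. The share of all genes that were highest in this class is not given here. Of 37 members, 27 had their highest mean over libraries there among the 8 classes with at least 30 cells in every library, and for 11 of them (Rsad2, Oas1g, Oas2, Oas3, Oasl2, Irf7, Dhx58, Zbp1, Slfn4, Ifi204 and Ifitm3) no library of the second class reached the lowest monocyte/macrophage library. Among the other 10 members, regulatory T cells were highest for 5, conventional dendritic cells for 2, and CD4 T, CD8 T and NK cells for 1 each. UMIs at the 3′ end count molecules and were not divided by length. The 5 highest members in monocyte/macrophage cells were Ifitm3, which blocks virus entry (2614 ± 254 CPM, SD, n = 7 libraries), Ifi27l2a (1390 ± 369), the virus-tethering membrane protein Bst2 (672 ± 138), Irf7, the factor that drives interferon alpha genes (426 ± 106), and the ubiquitin-like modifier Isg15 (417 ± 151). Ifitm3 alone made 28.5% of all member UMIs in this class. 22 members had a mean of at least 100 CPM in monocyte/macrophage cells, against 6 in microglia.

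Microglia, the resident macrophages of the brain, held lower levels. Their 5 highest members were Ifi27l2a (369 ± 179 CPM, n = 7), Bst2 (340 ± 125), Ifitm3 (261 ± 107), the tripartite-motif gene Trim30a (211 ± 44.2) and the ADP-ribosyltransferase Parp14 (140 ± 38.9). In conventional dendritic cells the order began with Ifitm3 (896 ± 260), Ifi27l2a (486 ± 131), Ifitm1 (363 ± 221), Isg15 (319 ± 118) and Bst2 (286 ± 42.2). NK cells were the lowest class for 16 members, microglia for 9 and conventional dendritic cells for 7. The highest members of NK cells were Trim30a (182 ± 43.0), Bst2 (134 ± 30.0), Ifitm3 (110 ± 33.7), Parp14 (106 ± 14.3) and Ifitm1 (85.5 ± 20.1).

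T cells had another order, led in each subset by Ifi27l2a, a small membrane protein gene of the ISG12 family. Ifi27l2a reached 4027 ± 858 CPM in regulatory T cells, 2669 ± 950 in CD4 T cells, 2561 ± 583 in other T cells and 1774 ± 228 in CD8 T cells (n = 7 each), and made 56.1% of member UMIs in regulatory T cells. Regulatory and CD4 T cells overlapped across libraries in this level. Bst2, Trim30a and Ifitm3 were also among the 5 highest in each T class, with means from 203 CPM (Trim30a in CD8 T cells) to 407 CPM (Ifitm3 in CD4 T cells). Ifitm1 was uneven: in CD8 T cells it read 2622 CPM in the untreated pool and 355 to 886 CPM in the 6 others (mean 916 ± 770). In regulatory T cells the nuclease gene Isg20 stood at 205 ± 41.8 CPM and Ifit1 at 65.1 ± 19.5, the highest means of the 8 classes, though their ranges overlapped those of CD8 and CD4 T cells, respectively. Slfn1 was highest in CD4 T cells (147 ± 29.3) and Ddx58 in NK cells (84.1 ± 20.4), also with overlap. Conventional dendritic cells led for Oasl1 (129 ± 47.9 against 107 ± 43.5 in monocyte/macrophage cells) and the ISG15 ligase Herc6 (156 ± 34.2), again overlapping.

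Some of the classes that lacked enough cells in every library for a test are given as levels. Over all 15 gated classes, 18 members had their highest mean in neutrophils, which numbered only 104 cells (3 to 45 per library). Slfn4 read 320 to 1987 CPM in neutrophils, against 9.84 to 119 CPM in monocyte/macrophage cells. In the 159 plasmacytoid dendritic cells Bst2, which is also a known surface marker of these cells, stood at 3543 ± 388 CPM and Irf7 at 428 ± 99.9 (n = 7). Choroid plexus cells had a summed member level of 16092 and 14857 CPM with PT2385, from only 22 and 7 cells. With ICB it was 1837 and 5172 CPM and with both 2319 and 4773 CPM, from 84 to 710 cells per library. The untreated pool had 0 of these cells.

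**Figure D1:**
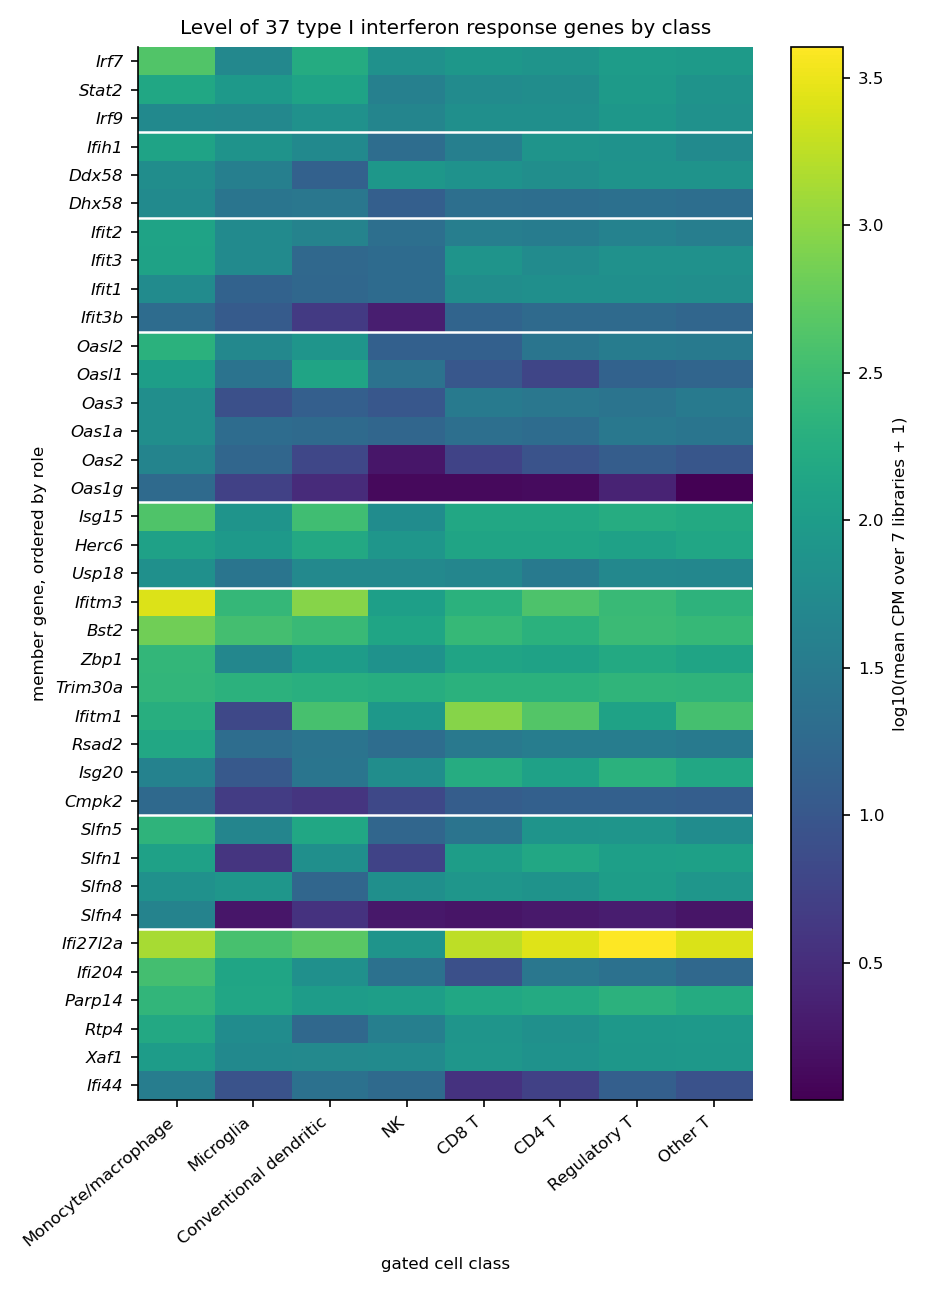
Mean level of each of the 37 members (rows, ordered by role) in the 8 tested cell classes (columns), as the log10 of 1 plus the mean CPM over 7 libraries (colour). Ifitm3 and Ifi27l2a are high in several classes (2614 and 1390 CPM in monocyte/macrophage cells), whereas Slfn4 exceeds 20 CPM only in monocyte/macrophage cells (mean 42.0 CPM).

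The class differences were tested with both classes taken from the same pools. edgeR's quasi-likelihood test with the library as a block found 36 of 37 members lower in microglia than in monocyte/macrophage cells and 0 higher, where over all genes 38.2% were lower and 37.6% higher. The median member difference was -2.18 on the log2 scale, beside 0.02 for all genes. The widest differences were Slfn4 (-6.09 ± 0.26, SE), Slfn1 (-6.08), Ifitm1 (-5.80), Ifitm3 (-3.91) and Irf7 (-3.63). Slfn8 was the exception (-0.23, edgeR adjusted p = 0.078). Conventional dendritic cells were lower for 33 members and higher for 3 (Ifitm1 0.83, Irf9 0.23, Herc6 0.22), with background shares of 34.7% and 29.5% and a median of -1.52. CD8 T cells were lower for 30 and higher for 2, Ifitm1 (1.86 ± 0.29) and Isg20 (1.90 ± 0.21), with background shares of 39.1% and 35.2% and a median of -1.39.

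PT2385 went with lower levels of most members in monocyte/macrophage cells, but no single member passed the test over all genes. Comparing the 4 libraries with PT2385 with the 3 without it, in a model that also holds ICB, edgeR called 0 of 37 members at an adjusted p of 0.05, beside 25 of 14486 genes (0.173%). At an unadjusted p under 0.05, 32 members were lower and 0 higher, where the background is 10.9% of genes lower and 9.62% higher. DESeq2 called 27 members, beside 6.21% of genes. 35 members had a fold change below 0, with a median of -0.52 beside 0.00 for all genes. For 14 members all 4 PT2385 libraries lay below all 3 others (9.32% of the 9089 genes with at least 5 CPM did so), and for 0 did they lie above (11.1% of genes). The count of calls depended on the libraries used: without ICB pool 2 edgeR called 26 members (6.19% of genes).

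Slfn4, a Schlafen gene typical of myeloid cells, had the largest difference. It read 82.8 CPM in the untreated pool, 14.7 and 23.9 in the PT2385 pools, 119 and 29.7 in the ICB pools and 13.6 and 9.84 in the combination pools. All 4 PT2385 libraries were therefore below the other 3, although ICB pool 2 lay close to PT2385 pool 2. The difference was -2.39 ± 0.43 on the log2 scale (SE, edgeR adjusted p = 0.069, and 0.000614 with DESeq2). It was -1.80 without ICB pool 1 (edgeR adjusted p = 0.0209) and -2.68 without ICB pool 2 (edgeR adjusted p = 0.00999).

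Isg20, a nuclease that degrades viral RNA, read 65.2 CPM untreated, 20.5 and 25.1 with PT2385, 71.6 and 43.3 with ICB, and 31.9 and 21.7 with both. Its groups did not overlap, and the difference was -1.25 ± 0.20 (edgeR adjusted p = 0.059). Leaving out ICB pool 1 or pool 2 brought Isg20 to an edgeR adjusted p of 0.0408 or 0.0109. Oasl1, an OAS-like protein without synthetase activity, read 167, 87.4, 94.6, 173, 90.4, 69.0 and 71.7 CPM in the same order. Here ICB pool 2 lay among the PT2385 libraries, so the groups overlapped, with a difference of -0.86 ± 0.17 (edgeR adjusted p = 0.076).

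**Figure D2:**
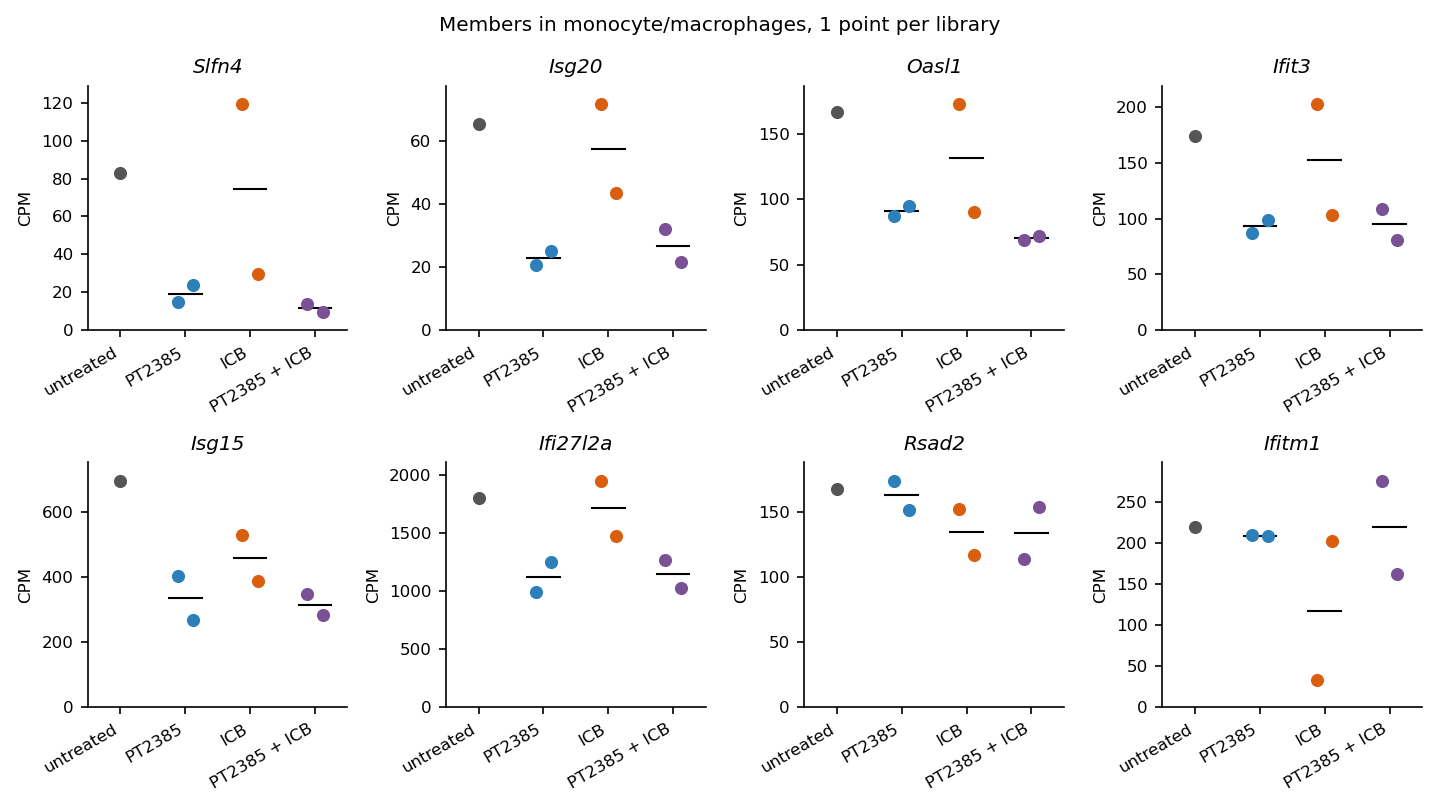
CPM of 8 members in monocyte/macrophage cells (y axis, linear from 0, one panel per gene), 1 point per library and a bar at the group mean, by treatment group on the x axis. Slfn4 lies at 9.84 to 23.9 CPM in the 4 libraries with PT2385 and at 29.7 to 119 CPM in the 3 without.

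The IFIT and OAS families showed the same direction. Of the IFIT genes 3 of 4 were lower at an unadjusted p under 0.05 (median -0.66), and Ifit3 read 174, 87.4, 98.8, 203, 103, 109 and 81.1 CPM in the order above (-0.75 ± 0.20, edgeR adjusted p = 0.119). Ifit1 was the member of that family that missed it (-0.34 ± 0.15). All 6 OAS genes were lower at that level (median -0.65), with Oas1a at 84.6 CPM untreated, 37.4 and 62.6 with PT2385, 93.3 and 56.5 with ICB and 51.0 and 43.1 with both (-0.68 ± 0.20, edgeR adjusted p = 0.136). In both of these genes ICB pool 2 overlapped the PT2385 libraries.

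The other roles differed in size. The ubiquitin-like system had 3 of 3 lower at an unadjusted p under 0.05 (median -0.63). Isg15 read 698, 403, 269, 529, 389, 346 and 283 CPM (-0.73 ± 0.19, edgeR adjusted p = 0.109), with ICB pool 2 just below PT2385 pool 1. The 3 RNA sensors (median -0.59), the 3 transcription factors (-0.37), the 4 Schlafen genes (-0.51) and the 6 others (-0.48) were each lower in full at that level, Irf9 least (-0.17 ± 0.07). Among the other antiviral effectors only 4 of 8 were (median -0.28). Rsad2, which makes a chain-terminating nucleotide, had a difference of 0.00 ± 0.12, with 168 CPM untreated, 174 and 152 with PT2385, 152 and 117 with ICB and 114 and 154 with both. Ifitm1 (0.48 ± 0.57) was set by ICB pool 1, at 32.4 CPM against 162 to 277 CPM in the 6 other libraries.

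The untreated pool and ICB pool 1 were the high libraries. 23 members had their highest monocyte/macrophage level in ICB pool 1 and 12 in the untreated pool. The summed level of the 37 members was 11573 CPM untreated, 8020 and 8628 with PT2385, 11227 and 9083 with ICB, and 8245 and 7493 with both. ICB pool 2 was thus nearer to the PT2385 libraries than to the other ICB pool. Markers moved alongside: the 9 microglia markers summed to 558 to 750 CPM in the monocyte/macrophage cells of PT2385 libraries and 757 to 893 in the others, and the 7 plasmacytoid dendritic markers to 213 to 232 and 241 to 297, and 0 markers of either list lacked counts. The 5 choroid plexus markers ran from 0.423 CPM untreated to 277 CPM in combination pool 2. Their part in the differences was not tested.

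**Figure D3:**
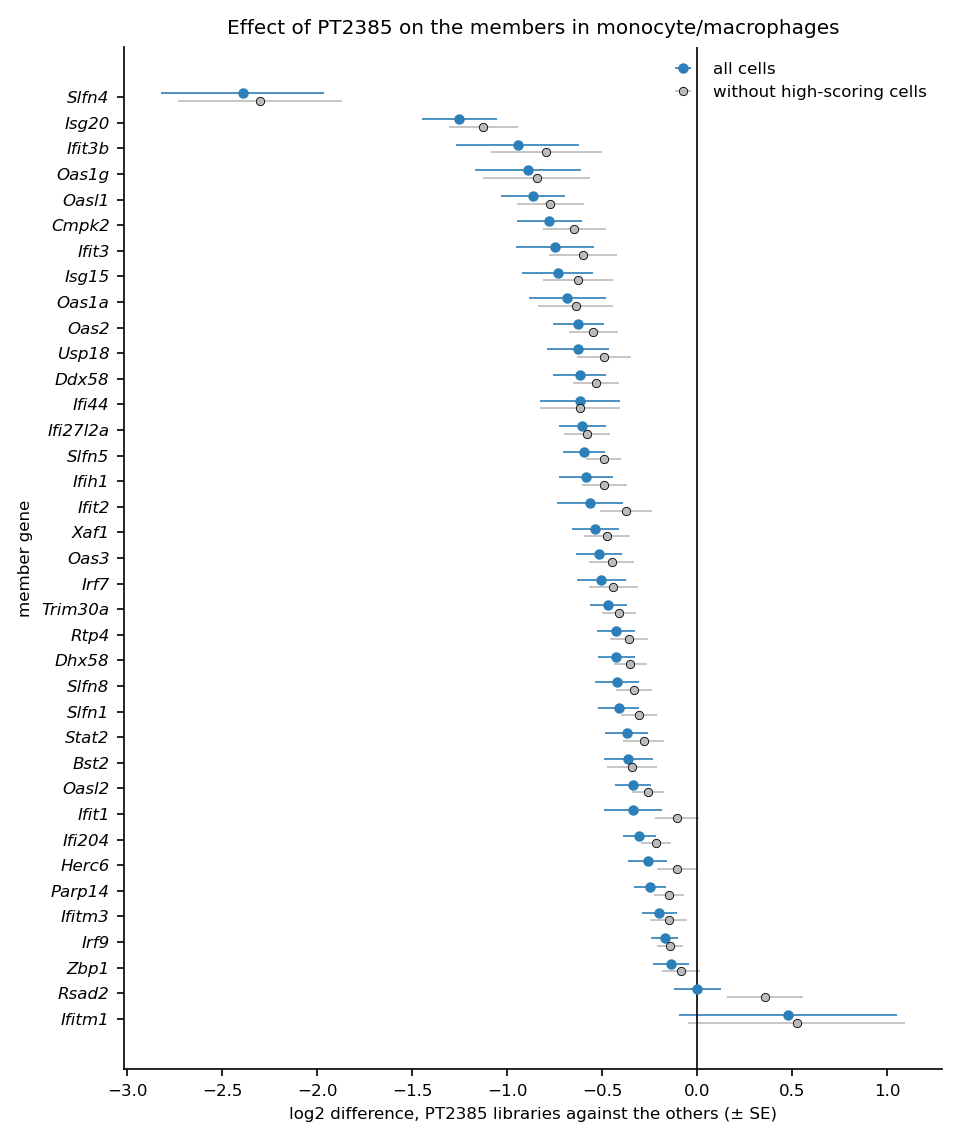
Log2 fold change for PT2385 of each member (rows, ordered by size) in monocyte/macrophage cells, with its standard error, from all cells and again without high-scoring cells. 35 of 37 members lie left of 0 in all cells, with a range from -2.39 for Slfn4 to 0.48 for Ifitm1.

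Outside monocyte/macrophage cells and microglia the members leaned the same way with PT2385. In these 6 classes 28 to 34 members were lower, and class medians ran from -0.27 to -0.44. In microglia 27 members were lower with a median of -0.16, but that median ran from -0.53 to 0.16 with 1 library left out, and the mean number of members detected per cell was higher with PT2385 (4.54 ± 1.48, SD, n = 4, against 3.83 ± 0.867, n = 3), with overlapping libraries. Medians of all genes in the 7 classes ran from -0.01 to 0.01. edgeR called 0 members in the 7 classes, where 0.683% of genes were called in NK cells, 0.0598% in regulatory T cells, 0.0396% in CD4 T cells and 0% in the other four. At an unadjusted p under 0.05, 15 members were lower in conventional dendritic cells (background 2.73%), 13 in NK cells (6.08%), 9 in regulatory T cells (3.59%), 8 in other T cells (3.15%), 7 in CD4 T cells (4.2%), 3 in CD8 T cells (3.72%) and 0 in microglia (2.62%). DESeq2 called 28 members over the 8 classes, 27 in monocyte/macrophage cells and 1 in NK cells (0.617% of genes). In NK cells all 4 OAS genes tested were lower at that level, with a median of -1.16. Slfn4 had a difference of -2.94 in conventional dendritic cells, where its mean was only 2.59 CPM.

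ICB had no clear counterpart in monocyte/macrophage cells. edgeR called 0 members (0% of genes), DESeq2 called 0 (0.449%), and 6 were lower at an unadjusted p under 0.05 (background 3.96%). The median was -0.14. The 6 members with the largest differences were Slfn4 (-0.52 ± 0.43), Oasl1 (-0.39 ± 0.17), Oas3 (-0.39 ± 0.12), Usp18 (-0.35 ± 0.16), Ifi44 (-0.34 ± 0.21) and Ifitm1 (-0.33 ± 0.56). None of these 6 passed, with edgeR adjusted p from 0.51 to 0.88. For Oas3, an OAS enzyme, 96.5 CPM in the untreated pool stood above 72.8 and 56.0 with ICB, 51.8 and 62.8 with PT2385, and 49.7 and 49.0 with both. Its untreated value was the highest of the 7. For Usp18, the protease that removes ISG15 and restrains the receptor, the ICB pools read 94.8 and 53.6 CPM, both below 99.5 untreated, and the 2 ICB pools lay far apart.

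In microglia the additive model put most members lower with ICB, but the 2 ICB pools were not both below the untreated pool. PT2385 pools were higher than the untreated pool, and combination pools had lower summed levels than both ICB pools. By mean members detected per cell, however, ICB pool 1 (2.99) was below both combination pools (3.49 and 3.04). For ICB, 35 of 36 tested members were lower, with a median of -0.62 (the lowest of the 8 class medians, which ran up to -0.02), and 16 were so at an unadjusted p under 0.05 (background 6.86%), but edgeR called 0 (0.149% of genes) and DESeq2 0 (1.17%). Of the 33 members with a mean of at least 5 CPM in microglia, 29 were higher in both PT2385 pools than in the single untreated pool (37.9% of the 10029 genes at that level were), and 12 were higher there than in all 5 other libraries (8.95% of genes). Both combination pools were below both ICB pools for 18 of them (19% of genes). The summed member level shows the order: 2059 CPM untreated, 3626 and 3440 with PT2385, 2032 and 3280 with ICB, and 1794 and 1680 with both. The 2 ICB pools again stood far apart.

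The interaction, which asks whether PT2385 acted differently with and without ICB, had a median of -1.30 over 36 members in microglia, with 27 lower and 0 higher at an unadjusted p under 0.05 (background 8.08% and 4.68%). edgeR called 0 of them (0.0717% of genes) and DESeq2 9 (0.677% of genes). In monocyte/macrophage cells the median was 0.19, with 0 members lower or higher at that level (background 0.954% and 2.29%), and whether the classes differ in it was not tested. The microglia of the 2 PT2385 pools also had the lowest summed dissociation-stress markers (8340 and 8360 CPM against 10611 to 13036) and the lowest microglia markers (11292 and 13052 against 13184 to 15751), while the 13 monocyte/macrophage markers stayed between 3139 and 3488 CPM in all libraries. The part of these markers in the result was not tested.

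Oasl1 in microglia was the 1 member that passed the test in any treatment comparison. It read 18.2 CPM in the untreated pool, 29.6 and 30.5 with PT2385, 33.7 and 28.6 with ICB, and 14.7 and 12.3 with both. The combination pools were the lowest of all 7, and both ICB pools were above them. Against ICB alone Oasl1 fell by 1.24 ± 0.15 on the log2 scale (edgeR adjusted p = 0.0176), where 0.0797% of genes were called. The call was lost in 6 of 14 alternative settings, among them stricter gates (adjusted p = 0.0979), looser gates (0.608), and leaving out either PT2385 pool or either combination pool (0.0664 to 0.137). The interaction for Oasl1 was -1.97 ± 0.29 (edgeR adjusted p = 0.052). Ifi27l2a (286 and 569 CPM with ICB, 176 and 174 with both) and Ifitm3 (230 and 345, then 148 and 132) went in the same direction with wider errors (-1.32 ± 0.26 and -1.07 ± 0.19, edgeR adjusted p = 0.13 and 0.099).

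The combination was lower than ICB alone in the median member of all 8 classes (-0.28 to -0.76, beside -0.01 to 0.01 for all genes). In monocyte/macrophage cells edgeR called 0 members (0% of genes), DESeq2 called 2 (1.24%), and 17 were lower at an unadjusted p under 0.05 (background 5.78%). The comparison with the untreated pool shares these combination libraries, so the values are given side by side only: a median of -0.67, 0 members called by edgeR (0% of genes) and 10 by DESeq2 (0.934%), and 28 lower at an unadjusted p under 0.05 (background 5.8%). Both combination pools lay below the untreated pool for 36 of the 37 members (33.4% of genes with at least 5 CPM), and so did both PT2385 pools for 36 (33% of genes). These counts rest on the single untreated library.

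Whether the lower levels came with fewer strongly responding cells or with lower levels in all cells was examined per cell. Each cell was thinned to 3000 UMIs and scored by the number of the 37 members with a UMI. In 15585 monocyte/macrophage cells the score had its mode at 10 and its maximum at 33. Cells at 23 or above, the lowest score that at most 5% of this class reached, are called high-scoring. This is a range of a continuous score and not a cell type: 143 cells sat at 23 and 185 at 1 below. Of 840 high-scoring cells in all, 662 (78.8%) were monocyte/macrophage cells, 67 ungated, 38 in several gates, 14 microglia, 14 CD4 T cells and 13 CD8 T cells.

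**Figure D4:**
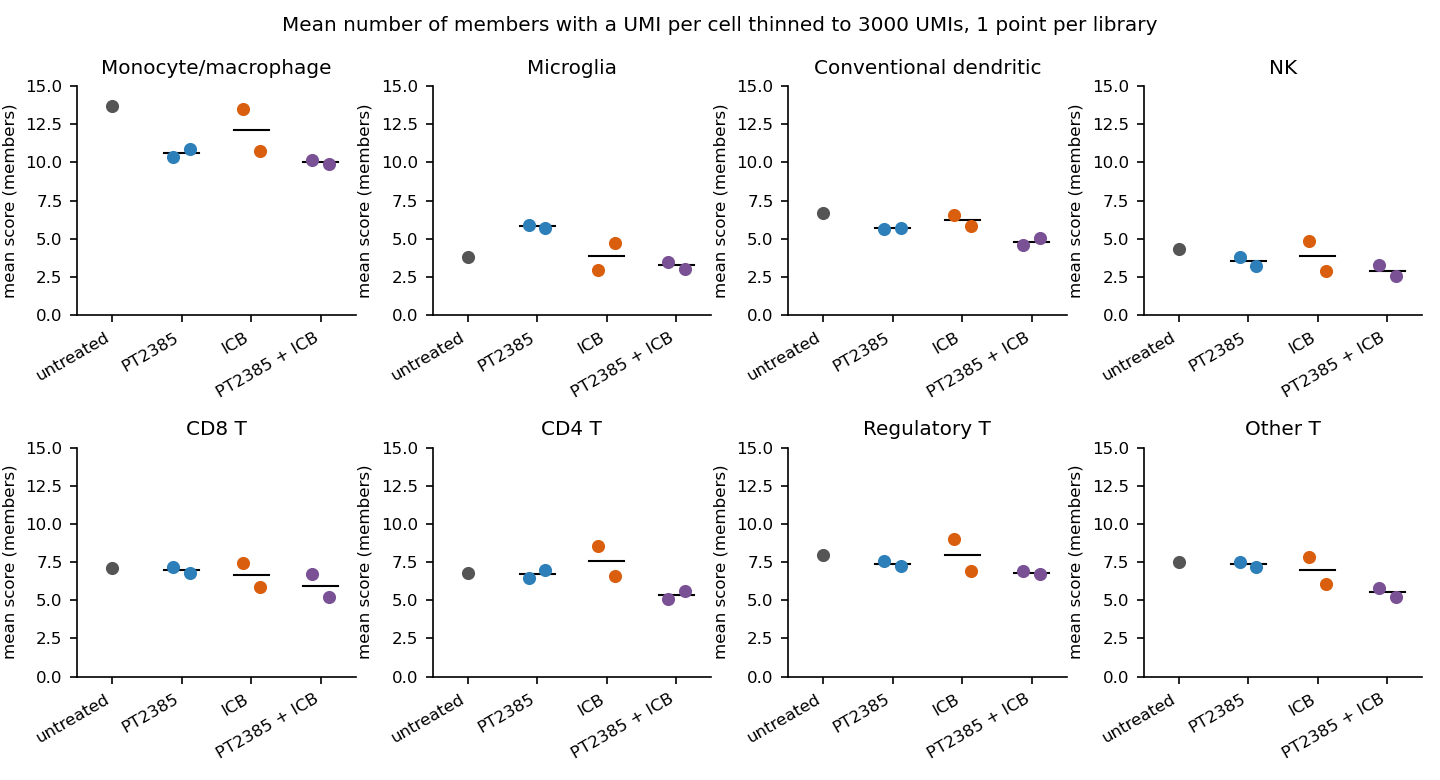
Mean number of the 37 members with a UMI per cell thinned to 3000 UMIs (y axis, 0 to 15), 1 point per library and a bar at the group mean, by treatment group, 1 panel per class. Monocyte/macrophage cells run from 9.87 to 13.7 and microglia from 2.99 to 5.91, with the 2 PT2385 pools highest in microglia.

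The share of high-scoring monocyte/macrophage cells was lower in each library with PT2385 than in each without. It was 6.66% in the untreated pool (248 of 3723 cells, exact binomial 95% interval 5.88 to 7.51), 1.40% (0.969 to 1.95) and 2.18% (1.66 to 2.81) with PT2385, 8.63% (7.35 to 10.0) and 4.31% (3.59 to 5.12) with ICB, and 3.23% (2.26 to 4.46) and 1.33% (0.745 to 2.18) with both. The intervals cover counting error only. With PT2385 the share was 2.03% ± 0.886 (SD, n = 4) and without it 6.53% ± 2.16 (n = 3), and the groups did not overlap. With ICB it was 4.37% ± 3.09 (n = 4) against 3.41% ± 2.84 (n = 3), and the groups overlapped. Without thinning, the same cut gave 33.0 to 58.6% of cells and the groups overlapped. Deeper cells show more genes, and the part of depth in this overlap was not tested. 7 to 54 shallower cells per library were left out. Median depth of monocyte/macrophage cells was 9693 UMIs untreated, 14111 and 12916.5 with PT2385, 12190.5 and 11650 with ICB, and 15179 and 14823.5 with both. Depth was thus higher in each library with PT2385 than in each without. Its part in the differences of share and level was not tested.

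The level in the remaining cells was lower as well. In monocyte/macrophage cells below the cut, the mean number of member UMIs per 3000 was 35.1 in the untreated pool, 24.5 and 26.5 with PT2385, 32.9 and 27.5 with ICB, and 24.4 and 23.2 with both. The mean with PT2385 was 24.7 ± 1.39 (n = 4) against 31.8 ± 3.89 without (n = 3), again without overlap, although ICB pool 2 and PT2385 pool 2 were close. Over all scored cells the difference was -9.52 member UMIs per 3000, and in cells below the cut -7.18, which is 75.4% as large. The 2 means cover different sets of cells, so this ratio is not a part of the whole difference. The cut divides a continuous score, so the share and the level below it are not independent. High-scoring cells themselves held 85.5 to 89.9 member UMIs per 3000 in all 7 libraries, and 4.83 to 20.0% of a library's member UMIs in this class. The cut that selects these cells fixes much of their level, so its evenness does not compare their response between treatments. With high-scoring cells taken out of the sums, the median PT2385 difference over members was -0.44 in place of -0.52, and 29 members were lower at an unadjusted p under 0.05 (background 10.4%). Slfn4 then stood at -2.30, and Rsad2 turned from 0.00 to 0.36.

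**Figure D5:**
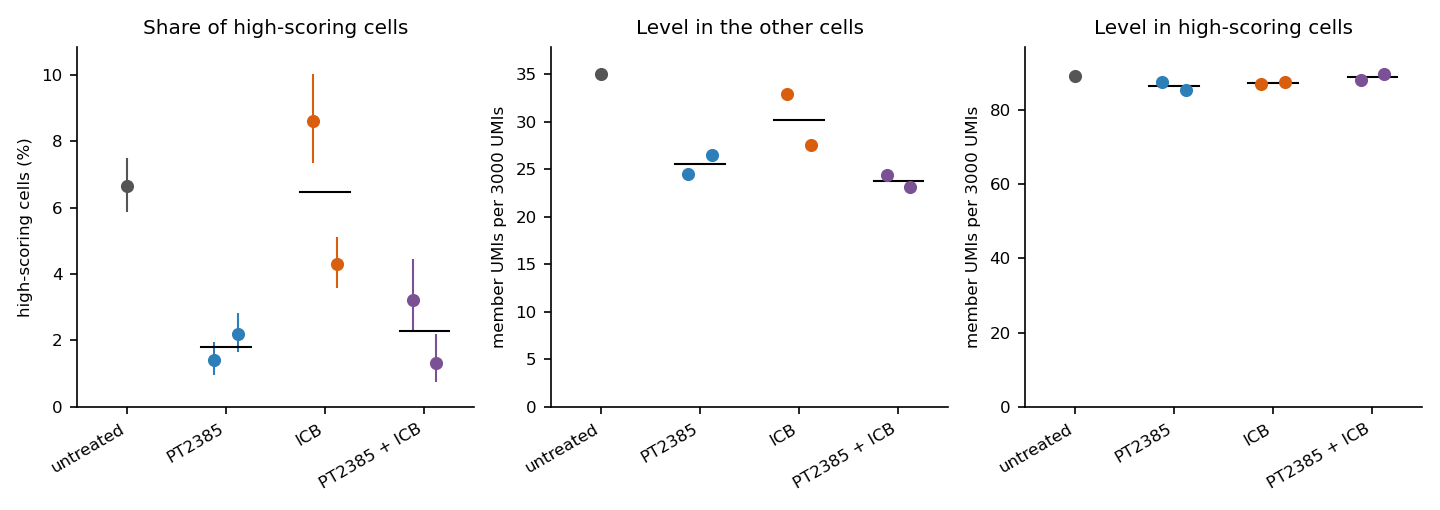
Percent of high-scoring monocyte/macrophage cells with its exact 95% interval (left), mean member UMIs per 3000 UMIs in the remaining cells (middle) and in the high-scoring cells (right), 1 point per library and a bar at the group mean, all y axes from 0. The 4 libraries with PT2385 lie at 1.33 to 3.23% and 23.2 to 26.5 UMIs, below the 3 without (4.31 to 8.63% and 27.5 to 35.1 UMIs). All 7 hold 85.5 to 89.9 UMIs in high-scoring cells, a level that the cut largely fixes.

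The members differed in how much they belong to the high-scoring cells. Since the score counts these members, the values are a description. All 37 were higher per 3000 UMIs in high-scoring monocyte/macrophage cells than in the rest, 13 of them at least 5-fold. The nucleotide kinase gene Cmpk2 led (23.8-fold), followed by Ifit3b (17.5), Ifit1 (14.6), Rsad2 (13.5), Ifit3 (11.9) and Ifit2 (11.7). Slfn4 was 9.66-fold, Usp18 9.53-fold and Oasl1 9.03-fold higher. Bst2 (1.42), Ifi27l2a (1.64), Irf9 (1.74) and Ifitm3 (1.88) differed least. When cells were scored by 19 members only, the 18 others were still detected more often in high-scoring cells, 10.8 to 11.4 per cell against 4.01 to 5.97 in the rest, across the 7 libraries.

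Markers of other cell types were also read in these cells. The gate fixes part of these values, since a cell entered the class only with at least 7 of its 13 markers and was set aside if it passed another gate. The 13 monocyte/macrophage markers had a median of 16466 CPM in high-scoring cells and 15151 in the rest, the 9 microglia markers 310 and 556 CPM, and T, B and NK markers a median of 0 in both. The 7 plasmacytoid dendritic markers were higher in high-scoring cells (314 against 184 CPM), as were the 3 endothelial markers (134 and 96.7 CPM), and their part in the score was not tested. The 8 dissociation-stress genes stood at 7030 and 5916 CPM and the 12 genes of the interferon gamma side at 3858 and 2423 CPM. Median depth was 8064 to 13420 UMIs in high-scoring cells and 9966 to 15242 in the rest. Ungated cells showed shares of 5.44% untreated, 0.329 and 2.75% with PT2385, 6.04 and 2.29% with ICB, and 0.455 and 0% with both. Cells in several gates showed 3.62% untreated, 0.251 and 0.847% with PT2385, 4.44 and 0.683% with ICB, and 0.901 and 0.617% with both. In both sets the libraries with and without PT2385 overlapped.

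In other classes high-scoring cells were rare. Microglia had 0 to 5 per library (0 to 0.888%). Their mean member UMIs per 3000 in the remaining cells were 5.23 untreated, 9.57 and 8.58 with PT2385, 4.52 and 7.71 with ICB, and 4.73 and 4.23 with both. Both PT2385 pools were the highest there, ICB pool 2 next. Regulatory T cells had 0 high-scoring cells in all 4 libraries with PT2385, and 0.658%, 2.63% and 1.64% in the untreated and ICB pools. The counts of 0 allow shares of up to 4.41 to 8.33%. These limits are 3 divided by the number of scored cells, not the exact binomial interval. The groups did not overlap, but the shares that these counts of 0 allow include the 3 others.

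The other genes of the pathway were taken from 4 lists. Of 17 ligand genes, 0 reached the level needed for a test and 5 had any UMI, with 130 UMIs in 93 of 38441 cells. Interferon beta (Ifnb1) gave 45 UMIs in 20 cells, 10 of them monocyte/macrophage cells and 5 in several gates. Ifna2 gave 8 UMIs, all in 1 microglia-gated cell. Ifnk gave 31 UMIs, 23 of them in monocyte/macrophage cells, and Ifnz 45.

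The receptor chains and their kinases in monocyte/macrophage cells had small differences with PT2385. The receptor chain Ifnar1 read 131 CPM untreated, 106 and 110 with PT2385, 109 and 129 with ICB and 116 and 104 with both (-0.17 ± 0.11 on the log2 scale, edgeR adjusted p = 0.413). Ifnar2, the other chain, was at 0.10 ± 0.13, and the receptor kinases Jak1 and Tyk2 at -0.08 ± 0.08 and 0.08 ± 0.07 (edgeR adjusted p = 0.694, 0.597 and 0.545). None of these 4 genes passed the test, and their libraries with and without PT2385 overlapped for Ifnar1 and Ifnar2.

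Of 12 genes for nucleic acid sensing and interferon induction, edgeR called 0, and 4 were lower and 2 higher at an unadjusted p under 0.05 (background 10.9% and 9.62%), with a median of 0.03. Cgas, the sensor of cytosolic DNA, was at -0.53 ± 0.17 and the RNA sensor Tlr7 at -0.36 ± 0.12 (edgeR adjusted p = 0.16 and 0.169). Sting1 is listed in the tables as Tmem173. The 12 genes of the interferon gamma side leaned the other way with PT2385, with a median of 0.36, 5 higher and 0 lower at an unadjusted p under 0.05 (background 9.62% and 10.9%) and 0 called by edgeR. Socs1, an inhibitor of JAK signalling, read 42.1 CPM untreated, 104 and 114 with PT2385, 53.3 and 46.4 with ICB and 63.1 and 114 with both (1.06 ± 0.21, edgeR adjusted p = 0.0759). Gbp4, Igtp and Irf1 were at 1.04 ± 0.21, 0.79 ± 0.15 and 0.78 ± 0.23.

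In microglia 1 gene of these lists passed for ICB. Ciita, the master regulator of MHC class II genes, fell by 1.89 ± 0.27 on the log2 scale (edgeR adjusted p = 0.0425). It read 25.9 CPM untreated, 46.3 and 48.5 with PT2385, 7.48 and 16.5 with ICB and 10.1 and 11.1 with both, and all 4 ICB libraries were below the 3 others. The interferon gamma side had a median of -0.68 there, with 7 of 12 lower and 1 higher at an unadjusted p under 0.05 (background 6.86% and 7.13%).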

How the data were processed

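Chromium 3′ v3.1 libraries were measured in 7 pools of CD45+ cells. The deposited files hold UMI counts per gene and cell. Per the file headers they come from Cell Ranger 7.0.0, whereas the submitters' processing notes name version 2.2.0, GRCm39 and Seurat 5 (clustering not used here). The members and lists were chosen with earlier results of these data known.

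A cell needed 300 genes and no more than 10% mitochondrial UMIs (40416 of 41033 barcodes passed). Scrublet in scanpy 1.11.5 (expected rate 5%) marked only 10 cells by its automatic threshold, so the top-scoring 0.8% per 1000 barcodes of each library were dropped (1975 cells, leaving 38441). Cells were gated by the number of fixed markers with a UMI (monocyte/macrophage at least 7 of 13, microglia 7 of 9, T cells 4 of 6, NK cells 3 of 6, conventional dendritic cells 4 of 8). T cells were split by Cd8a, Cd8b1, Cd4, Foxp3 and gamma-delta genes. Deep cells pass gates more easily.

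UMI counts were added up within each class of a library, for 8 classes with at least 30 cells in every library. edgeR 4.0.16 (TMM, filterByExpr, quasi-likelihood test, Benjamini-Hochberg adjustment over all genes of a class, threshold 0.05) tested PT2385 and ICB in an additive model (4 residual degrees of freedom) and the other contrasts with 1 mean per group (3). The lone untreated library was assumed to vary like the others. SE was derived from the fold change and its F statistic. On simulated data for PT2385 in monocyte/macrophage cells (14486 genes), 64% of 100 genes changed 2-fold and 89% of 100 changed 4-fold were recovered, with 8 false calls. The simulation took each gene's spread from the trend over genes and held no ICB difference, so recovery in the real counts may be lower. DESeq2 1.42.0, RLE factors, no low-count filter, doublets kept, a strict cell filter, other gates, cuts and thinning depths, sums without high-scoring cells and each library left out were alternatives. The looser gates were chosen after seeing the data.

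Members were named if called, if among the 5 highest of a class, or, in monocyte/macrophage cells, if among the 6 largest differences for PT2385 or ICB at a mean of at least 20 CPM. Members named outside this rule were chosen after their values were seen. One listed pathway gene is not reported here.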

Additional observations from a re-analysis of the deposited data

Results flagged for a closer look

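In group means, the number of members detected per microglia cell went opposite ways with PT2385 in mice with and without ICB. It was higher by 2.02 members in the PT2385 pools than in the untreated pool, and lower by 0.59 in the combination pools than in the ICB pools, a contrast of -2.61. In cells below the high-scoring cut the same values were 1.98, -0.65 and -2.64. The first comparison rests on 1 untreated library, the 2 ICB pools differed from each other by more than the combination differed from their mean, and the difference was not tested on this score.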

How the results depend on the processing

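The number of members called, added over 8 classes, depended on the setting, and the cause was not tested. Calls over all genes changed too: for PT2385 in monocyte/macrophage cells edgeR called 0.173% of genes and DESeq2 6.21%. For most settings below the share of all genes is not given, so these counts describe the setting and not the members alone. For PT2385 it was 0, and 28 with DESeq2, 60 without the low-count filter, 1 with looser gates, 1 without high-scoring cells and 0 to 30 with 1 library left out (30 without ICB pool 2, 26 of them in monocyte/macrophage cells; 3 without ICB pool 1; 1 without the untreated pool). For ICB it was 0, and 1 with DESeq2, 30 without the filter and 0 to 15 with 1 library left out (15 without the untreated pool, 14 without ICB pool 2). For the combination against ICB it was 1, and 6 with DESeq2, 62 without the filter, 0 with stricter or looser gates and 0 to 41 with 1 library left out (41 without ICB pool 2, 17 without ICB pool 1). For the combination against untreated it was 0, and 10 with DESeq2, 34 without the filter, 1 with looser gates and 0 to 13 with 1 library left out. Members higher in conventional dendritic than monocyte/macrophage cells numbered 3, and 0 with stricter gates, 1 with no replicate block and 1 to 3 with 1 library left out.

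The class medians of the member differences for PT2385 turned sign in 3 alternatives, all in microglia, and for ICB in 10. The share of high-scoring monocyte/macrophage cells for PT2385 differed by -5.61 to -3.45 percentage points with each library left out. For ICB it reversed, from 0.96 to -0.05 without PT2385 pool 1 and -0.46 without ICB pool 1 (range -0.46 to 2.58). The mean score below the cut reversed with 1 library left out for PT2385 in CD8 T cells (-0.26 to 0.01 and 0.13, range -0.68 to 0.13) and for ICB in monocyte/macrophage cells (-0.75 to 0.077, range -1.39 to 0.077) and CD4 T cells (-0.30 to 0.14, range -0.95 to 0.14). Ifitm1 for ICB in monocyte/macrophage cells reversed to 0.086 without the untreated pool and 0.02 without ICB pool 1 (range -0.82 to 0.086). No paired analysis was possible because replicate numbers across treatments follow record order and pair no mice. Depth limits the rare classes: 0 high-scoring cells of 36 regulatory T cells allows up to 8.33%, taken as 3 divided by 36.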
